A study of Mus musculus with 4 samples.

Results

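Tumour cells carry surface and secreted proteins that T cells, natural killer cells and macrophages read as brakes, and the genes of 10 such immune checkpoint ligands are described here by the openness of the chromatin assigned to them. Every peak of the deposited annotated peak table whose gene symbol was Cd274, Pdcd1lg2, Cd276, Vtcn1, Cd80, Cd86, Pvr, Nectin2, Cd47 or Lgals9 was taken, which gave 60 of 80881 peaks. The peaks belonged to 8 of the 10 genes, and the table analysed here held none assigned to Cd274 or Cd86. Cd47 had 24 peaks, Cd276 11, Vtcn1 8, Lgals9 6, Pvr and Pdcd1lg2 4 each, Nectin2 2 and Cd80 1.

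Open chromatin was read by ATAC-seq, which tags accessible DNA with a transposase, in KPC cells, a KP mouse lung adenocarcinoma line that carries Cas9. The mA2 dRNA group received a guide against Malat1, which encodes a nuclear long noncoding RNA, to raise its expression by CRISPR activation, and the Con dRNA group received a guide against luciferase, with 2 libraries in each group and 4 in all. Both groups carried lentiviral SpCas9 selected with puromycin and the lenti-SAM-Hygro activation vector, so the comparison is between guides within 1 engineered line. The comparison asks whether the Malat1 guide goes with opening or closing of chromatin at these genes. The values used here hold no measure of Malat1 RNA, so a rise of Malat1 cannot be told apart from other effects of its guide.

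PD-L1, encoded by Cd274, and PD-L2, encoded by Pdcd1lg2, bind PD-1 on T cells and dampen their activation. B7-H3 (Cd276) and B7-H4 (Vtcn1) belong to the same B7 family, and CD80 and CD86 bind both the activating receptor CD28 and the inhibitory receptor CTLA-4. PVR and nectin-2 engage TIGIT, CD47 gives macrophages a signal through SIRPα not to engulf the cell, and galectin-9 (Lgals9) binds sugars on T-cell surface proteins, TIM-3 among them. Cd274 is known as an interferon-γ target through JAK kinases and IRF1.

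Levels are group means of normalized reads as the authors gave them for each peak, and all 60 peaks were windows of 1 common width, so levels can be set side by side per length. The 4 columns of single libraries carry names that match no sample label and were not used, so the means carry no error, and the p-value of the authors alone weighs a difference against the spread between libraries. Called peaks, those said to have risen or fallen, had an adjusted p under 0.05 by the authors' deposited table. Differences are log2 mean reads with mA2 dRNA minus log2 mean reads with Con dRNA. In such bulk samples a change in a few cells and a small change in every cell cannot be told apart. The median over all 80881 peaks was 76.3 reads with mA2 dRNA and 69.2 with Con dRNA.

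The stretches upstream of 4 start sites show the range of promoters among these genes, from the Cd274 promoter that carries a GC box to the Lgals9 promoter that carries an interferon-type element and the Pdcd1lg2 promoter that no peak covered. They are RefSeq sequences of build GRCm38.p6, written 5′ to 3′ on the strand of the gene and ending at the base before the start site. Capitals mark matches to the motifs searched. The Cd274 stretch is shorter because the bases before it lie past the start site that the authors' distances give to the neighbouring gene Plgrkt. It spans chr19:29367309-29367437 on the plus strand, Pdcd1lg2 chr19:29410669-29410918 on the plus strand, Lgals9 chr11:78984925-78985174 on the minus strand and Vtcn1 chr3:100825209-100825458 on the plus strand.
Cd274: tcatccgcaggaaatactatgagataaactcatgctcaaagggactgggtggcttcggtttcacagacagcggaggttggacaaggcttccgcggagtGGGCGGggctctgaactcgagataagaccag
Pdcd1lg2: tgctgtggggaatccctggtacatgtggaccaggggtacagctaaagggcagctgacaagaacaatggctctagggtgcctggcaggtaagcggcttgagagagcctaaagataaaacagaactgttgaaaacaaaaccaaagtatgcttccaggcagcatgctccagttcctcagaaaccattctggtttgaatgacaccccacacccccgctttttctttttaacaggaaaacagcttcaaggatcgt
Lgals9: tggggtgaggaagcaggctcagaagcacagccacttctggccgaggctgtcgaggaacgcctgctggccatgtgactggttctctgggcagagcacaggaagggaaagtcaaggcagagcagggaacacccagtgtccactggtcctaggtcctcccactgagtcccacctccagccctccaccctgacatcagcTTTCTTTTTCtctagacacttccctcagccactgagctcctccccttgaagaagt
Vtcn1: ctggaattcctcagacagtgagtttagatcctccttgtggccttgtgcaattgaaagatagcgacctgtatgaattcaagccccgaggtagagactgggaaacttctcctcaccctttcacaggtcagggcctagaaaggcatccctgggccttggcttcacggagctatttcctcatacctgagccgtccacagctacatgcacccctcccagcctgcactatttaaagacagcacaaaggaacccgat

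On both strands, the 250 bases upstream of each RefSeq start site were searched for TATAAA, for GAAA, any 2 bases and GAAA (interferon-stimulated response element), TTCNNNGAA (gamma-activated site), TGANTCA (AP-1), GGG, any 2 bases and TTTCC (κB) and GGGCGG (GC box). None of the matches shared bases with another motif. Of 32851 promoter windows in the RefSeq table, 32.7% held the GC box, 12.4% TATAAA, 7.02% the gamma-activated site, 6.75% the AP-1 motif, 2.98% the interferon-stimulated response element and 1.41% the κB motif. Windows were found for 8 of the 10 genes, all but Cd86 and Pvr. GC boxes were matched at Cd274, Cd276, Cd47 and Nectin2, the AP-1 motif at Cd80, and the interferon-stimulated response element at Lgals9, TTTCTTTTTC in the stretch above, which reads as the motif on the opposite strand. The windows of Pdcd1lg2 and Vtcn1 held none of these letters. Cd47 and Cd276 were the richest in CG dinucleotides, with 30 and 29 in the upstream 250 bases, against a median of 6 over all windows, while Cd80, Lgals9 and Pdcd1lg2 held 3 each.

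A single checkpoint ligand peak, far downstream of Cd47, was called, and it rose. That is 1 of 60 peaks called higher and 0 lower, where 2.23% of all peaks were called higher, 0.507% lower and 2.73% in either direction, a share near this background. A raw p under 0.05 by the authors' deposited table was reached by 4 higher and 1 lower of the 60, together 8.33%, against 11.7% of all peaks. The mean was higher with mA2 dRNA in 47 of the 60 peaks, or 78.3%, against 60.8% of all peaks. The median difference was 0.21 on the log2 scale, with a range from -0.76 to 1.46, and the median of all peaks was 0.09. With differences centred on the median of each chromosome, 35 of the 60 were higher, and with centring on each 10 Mb window 36.

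**Figure D1:**
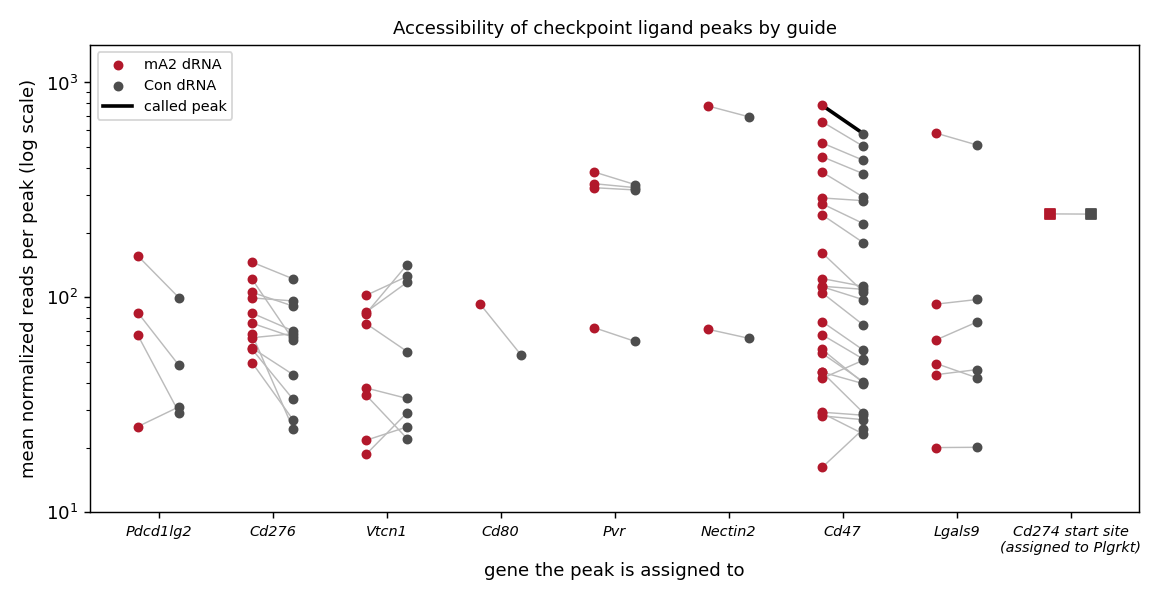
Mean normalized reads (log axis) of each peak by gene, mA2 dRNA left and Con dRNA right, joined by a line, with the called Cd47 peak in black and, as squares, the peak over the Cd274 start site that the authors assigned to Plgrkt. No error is drawn because libraries were not used singly. Most lines fall to the right except those of Vtcn1 and Lgals9, and the Cd274 start-site peak is level at 245 reads with mA2 dRNA and 244 with Con dRNA.

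Among the start sites with a peak over or close beside them, the most open chromatin lay at Nectin2, Cd47 and Lgals9 and the least at Vtcn1. The Nectin2 and Cd47 peaks lay 57 and 1 bp upstream of the RefSeq start site. Peaks lay over the RefSeq promoter window of 7 of the 8 genes that had one, and over 36.9% of all windows. Nectin2 led with 777 reads with mA2 dRNA and 692 with Con dRNA, followed by Cd47 with 656 and 505 reads and Lgals9 with 581 and 511. Pvr followed with 324 reads with mA2 dRNA and 316 with Con dRNA, and then Cd274 with 245 and 244. Cd276 held 146 reads with mA2 dRNA and 122 with Con dRNA at the start site used by the authors, and 84.5 and 69.9 over the RefSeq start site. Cd80 held 93.1 and 53.9, and Vtcn1 18.6 and 29.1. With mA2 dRNA the order of Cd276 and Cd80 thus depended on the start site taken for Cd276. The place of Cd274 depended on its start site as well. The peak at the upstream end of its RefSeq bounds held 475 reads with mA2 dRNA and 410 with Con dRNA, above Pvr. Whether neighbours in this order differ beyond the spread between libraries was not tested.

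PD-L1 and PD-L2 come first as the ligands of PD-1. The Cd274 gene (gene ID 60533) lies on chromosome 19 from 29362107 to 29388095, and 2 peaks overlapped these bounds. Both were assigned by the authors to Plgrkt, a plasminogen receptor gene whose own start lies beside that of Cd274. One, from 29361713 to 29362113, lay at the upstream end of these bounds, which begin before the start site used here. Its centre is at -5.525 kb from that start site. This edge peak held 475 reads with mA2 dRNA and 410 with Con dRNA, a difference of 0.21 with adjusted p 0.782 by the authors' deposited table. The peak from 29367186 to 29367586 covers the RefSeq start site of Cd274, including its promoter window and the GC box printed above. It held 245 reads with mA2 dRNA and 244 with Con dRNA, a difference of 0.003 on the log2 scale with adjusted p 0.999 by the authors' deposited table. The 2 means were thus level, although centring the differences in any of 4 ways put this peak slightly lower with mA2 dRNA, by between 0.09 and 0.19, and not called. This peak was picked out for its position after the table had been searched by gene symbol.

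Pdcd1lg2 (gene ID 58205, chromosome 19 from 29410919 to 29472927) had 4 peaks, none over its start site, and 3 of them, all in intron 1 of 5, had the higher mean with mA2 dRNA. The first intronic peak, 1.71 kb from the start site, held 84.8 reads with mA2 dRNA and 48.2 with Con dRNA. The second, 6.96 kb in, held 66.5 and 29.1 reads, a ratio of 2.29 with adjusted p 0.471 by the authors' deposited table. The third, at 7.74 kb, held 156 reads with mA2 dRNA and 99.6 with Con dRNA, with adjusted p 0.964 by the authors' deposited table, and the intergenic peak 14.2 kb upstream held 25.1 and 31.0. The median of the 4 differences was 0.73, the second highest among the 8 genes after the single Cd80 peak, and stayed between 0.53 and 0.64 under the 4 centrings, but 0 of the 4 peaks were called and 0 had a raw p under 0.05 by the authors' deposited table. The printed promoter and these intronic peaks are separate stretches, so the values say nothing of the promoter itself.

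Within 1 Mb of Cd274 or Pdcd1lg2 lay 122 peaks, with a median difference of 0.15. Of these, 2 were called higher and 2 lower, each 1.64%, against 2.23% and 0.507% of all peaks. The lower share was above that of all peaks but rested on 2 peaks. The nearest called one lies 17.4 kb upstream of Jak2, a kinase that helps to pass on the interferon-γ signal, and 133 kb before the Cd274 start site. It fell to 69.7 reads with mA2 dRNA, against 181 with Con dRNA, 2.60-fold lower with adjusted p 0.00473 by the authors' deposited table. The Jak2 promoter peak held 498 reads with mA2 dRNA and 434 with Con dRNA and was not called. The other calls, near Ranbp6 and in an intron of Gldc (both higher) and near Mbl2 (lower), lay between 476 and 936 kb after the Cd274 start site, and the Ranbp6 call ended under each centring (adjusted p 0.0897 to 0.170).

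**Figure D2:**
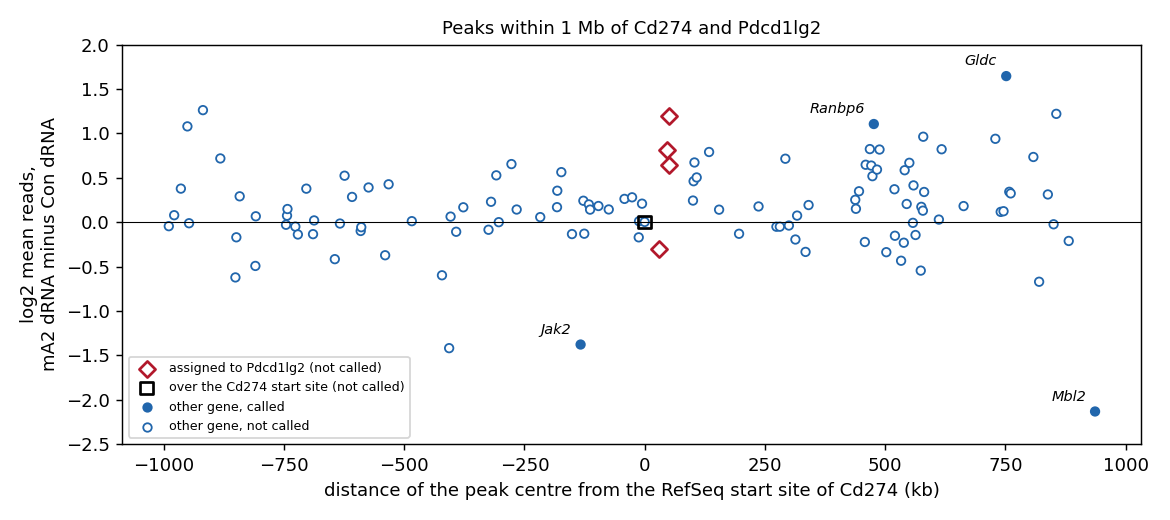
Difference in log2 mean reads (mA2 dRNA minus Con dRNA) of the 122 peaks within 1 Mb of Cd274 or Pdcd1lg2, by distance in kb from the Cd274 start site, filled where called. Of the 4 Pdcd1lg2 diamonds 3 sit above 0 and are open, the Cd274 start-site square sits on 0, and the filled Jak2 point lies lower at -1.38.

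Of the other B7 ligands, Cd276 had mostly higher means and Vtcn1 mostly lower ones, with 0 calls at either gene. Cd276 (gene ID 102657, chromosome 9 from 58524300 to 58555033) had the higher mean with mA2 dRNA in 10 of 11 peaks, with a median difference of 0.28 that lay between 0.14 and 0.18 under the 4 centrings. Its strongest differences lay in a run of intron 1 of 7, where all 5 peaks were higher with a median of 0.88. The peak 8.01 kb from the start site held 122 reads with mA2 dRNA and 63.6 with Con dRNA, a ratio of 1.91 with adjusted p 0.144 by the authors' deposited table. The 2 peaks beside it, singled out after their values were seen, held 67.4 and 24.5 reads at 6.17 kb and 49.7 and 27.0 at 5.30 kb, mA2 dRNA first in both, with adjusted p 0.161 and 0.522 by the authors' deposited table. The promoter peaks differed less, with 146 reads with mA2 dRNA and 122 with Con dRNA at the authors' start site and 84.5 and 69.9 over the RefSeq start site 0.404 kb further on.

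Vtcn1 (gene ID 242122, chromosome 3 from 100825459 to 100896922) had the lower mean with mA2 dRNA in 5 of 8 peaks, with a median difference of -0.25 that stayed below 0 under the 4 centrings, at -0.34 to -0.10. The intron 1 peak 41.5 kb from the start site held 84.1 reads with mA2 dRNA and 142 with Con dRNA, a difference of -0.76 with adjusted p 0.264 by the authors' deposited table. A second intron 1 peak, at 22.9 kb, led on the mean of both groups and held 102 reads with mA2 dRNA and 125 with Con dRNA, with adjusted p 0.902 by the authors' deposited table. The promoter peak was among the least open of all 60, with 18.6 reads with mA2 dRNA and 29.1 with Con dRNA and adjusted p 0.821 by the authors' deposited table. Upstream of the gene the picture was mixed: the 5 intergenic peaks had 3 higher and 2 lower means, with differences from -0.46 to 0.67.

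Cd80 and Cd86, the ligands shared by CD28 and CTLA-4 and typical of antigen-presenting cells, had 1 assigned peak between them. The single Cd80 peak (gene ID 12519, chromosome 16 from 38458591 to 38458991) covers the RefSeq start site and the AP-1 motif of the upstream window, while the authors' own start site lies 3.37 kb before it. It held 93.1 reads with mA2 dRNA and 53.9 with Con dRNA, a difference of 0.79 with adjusted p 0.726 by the authors' deposited table. No peak lay within the bounds of Cd86 (gene ID 12524, chromosome 16 from 36568956 to 36666158), and a single peak, assigned to Stfa3, lay within 100 kb of them. All 7 marker genes of professional antigen-presenting cells had a peak and 5 had one at the promoter. These promoters summed to 411 reads with mA2 dRNA and 446 with Con dRNA. By the strongest promoter peak of each gene, mA2 dRNA first, Batf3 held 142 and 181 reads and Zbtb46 111 and 88.4. Cd74 held 63.7 and 57.9, Flt3 35.6 and 26.9 and H2-Aa 18.3 and 21.6, while H2-Ab1 and Ciita had no promoter peak. The part of such cells in the Cd80 value was not tested.

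The TIGIT ligands showed small differences, with 0 calls among their peaks. Pvr (gene ID 52118, chromosome 7 from 19903578 to 19921143) had the higher mean with mA2 dRNA in 4 of 4 peaks, but by a median of 0.13, which turned to -0.02 with centring by chromosome and to -0.004 by 10 Mb window. Its promoter peak held 324 reads with mA2 dRNA and 316 with Con dRNA, with adjusted p 0.996 by the authors' deposited table, and was lower with mA2 dRNA under each centring. The intron 4 peak, 9.47 kb in, held 383 reads with mA2 dRNA and 335 with Con dRNA, with adjusted p 0.867 by the authors' deposited table. Nectin2 (gene ID 19294, chromosome 7 from 19716644 to 19749573) had 2 peaks, both just outside the RefSeq bounds and both higher with mA2 dRNA, by 0.17 and 0.14. The one 0.453 kb from the start site held 777 reads with mA2 dRNA and 692 with Con dRNA, with adjusted p 0.843 by the authors' deposited table.

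Cd47, the signal that holds off macrophages, had the highest number of peaks and the called one. The peak lies in intergenic sequence on chromosome 16 from 49951909 to 49952309, 39.4 kb past the end of the gene (gene ID 16423, 49851328 to 49912503). It rose to 782 reads with mA2 dRNA, against 578 with Con dRNA, a ratio of 1.35 with adjusted p 0.0369 by the authors' deposited table. It was more open than 96.2% of all peaks. The call ended under each of the 4 centrings, with an adjusted p of 0.133 to 0.864 and a difference of 0.17 to 0.36, against 0.44 without centring.

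The other Cd47 peaks mostly had higher means as well. Of the 24, 22 were higher with mA2 dRNA, including all 15 intergenic peaks, and the median difference was 0.31. Chromosome 16 as a whole had a median difference of 0.26, and after centring by chromosome 14 of the 24 were higher with a median of 0.05. The peak at the RefSeq start site, which the authors' annotation places in a 5' UTR 54.7 kb from a more distant start site, held 656 reads with mA2 dRNA and 505 with Con dRNA. Its ratio was 1.30, with adjusted p 0.145 by the authors' deposited table. The peak closest to the authors' start site, 6.82 kb from it, was one of the 2 lower ones, with 42.0 reads with mA2 dRNA and 51.0 with Con dRNA.

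**Figure D3:**
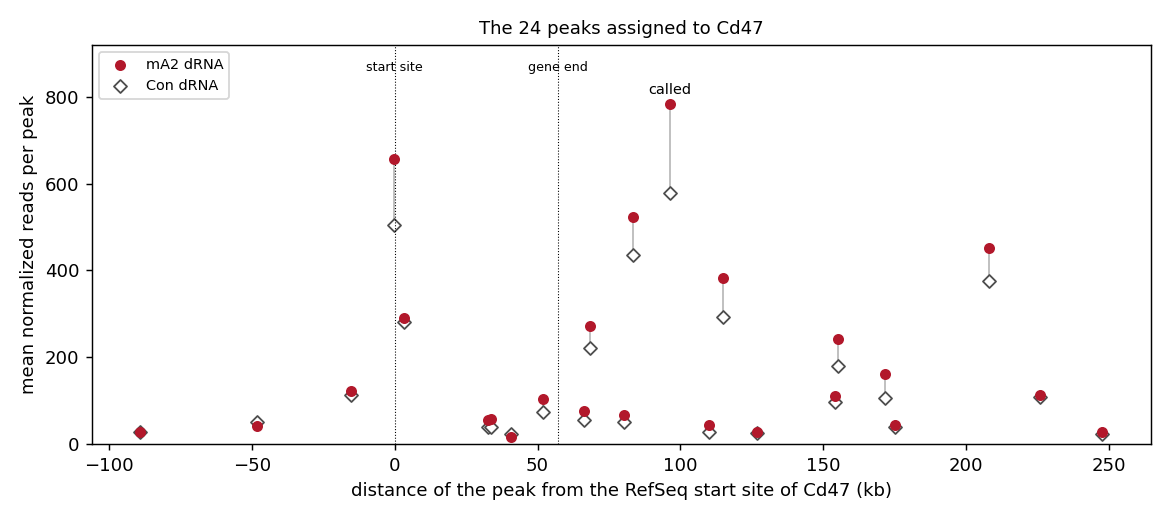
Mean normalized reads of the 24 peaks assigned to Cd47 by distance in kb from its RefSeq start site, mA2 dRNA as filled circles and Con dRNA as open diamonds. The called peak, 96.5 kb from the start site, holds 782 and 578 reads, and every peak past the gene end has the higher mean with mA2 dRNA.

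Lgals9, which encodes galectin-9 (gene ID 16859, chromosome 11 from 78962979 to 78984924), showed small differences in both directions. The promoter peak, which covers the interferon-type element printed above, held 581 reads with mA2 dRNA and 511 with Con dRNA, a difference of 0.18 with adjusted p 0.934 by the authors' deposited table. The other 5 peaks were far less open, with at most 93.1 reads with mA2 dRNA and 97.8 with Con dRNA. Of the 6 peaks 4 had the lower mean with mA2 dRNA, and the median difference was -0.04, at -0.14 to -0.13 under the 4 centrings.

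**Figure D4:**
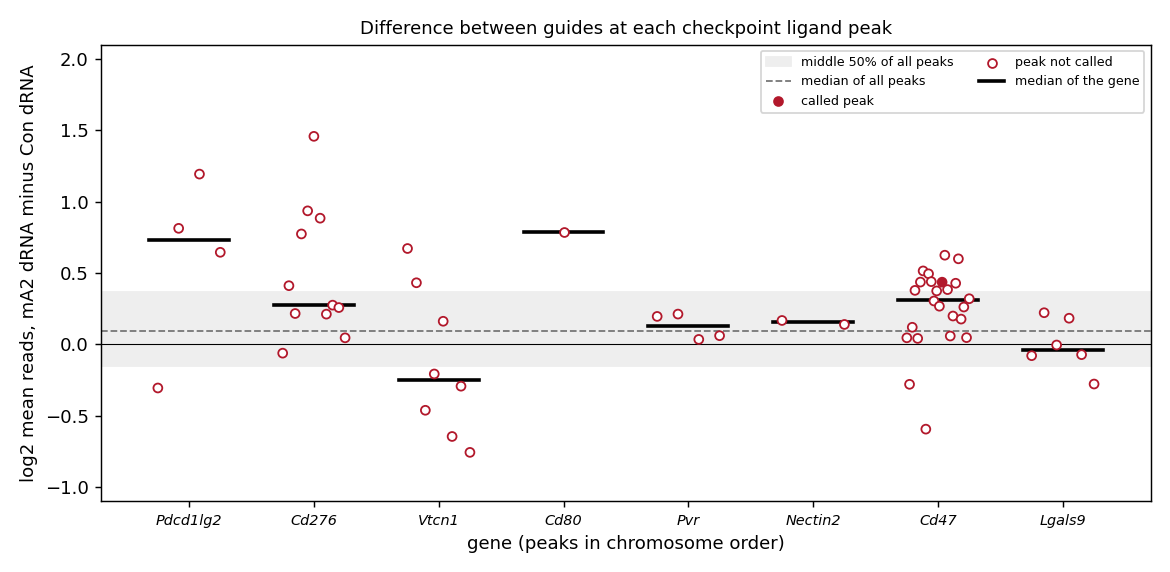
Difference in log2 mean reads (mA2 dRNA minus Con dRNA) of each peak, by gene in chromosome order, filled where called, with each gene's median as a black bar and the median and quartiles of all peaks behind. Pdcd1lg2 and Cd80 have the highest medians, at 0.73 and 0.79, and Vtcn1 the lowest, at -0.25.

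Around several of these genes the peaks assigned to other genes differed in the same direction. Within 100 kb of Cd276, 14 of 15 such peaks were higher with mA2 dRNA, with a median difference of 0.60, above the 0.28 of Cd276 itself. Within 100 kb of Vtcn1, 8 of 8 were lower, with a median of -0.25, the same as for Vtcn1. Near Pvr 22 of 23 were higher with a median of 0.22. Around Lgals9 it was otherwise, with 14 of 18 higher and a median of 0.24, against -0.04 for Lgals9. Near Pdcd1lg2 11 of 13 were higher, with a median of 0.24 against 0.73 for the gene's own peaks. Medians over the 10 Mb window ran from -0.15 at Vtcn1 to 0.28 at Cd80, and over the chromosome from -0.02 to 0.26 at the same genes. What these regional differences contributed to single peaks was not tested beyond the centrings.

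**Figure D5:**
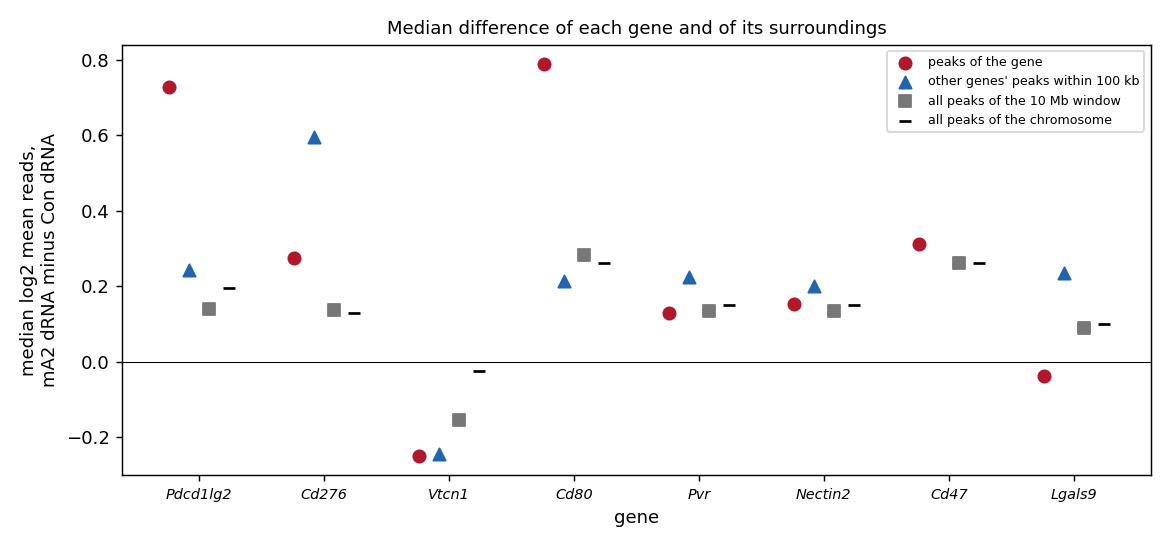
Median difference in log2 mean reads (mA2 dRNA minus Con dRNA) of the peaks of each gene, of other genes' peaks within 100 kb, of all peaks in the 10 Mb window and of all peaks on the chromosome. All peaks within 100 kb of Cd47 are its own, so it has no second symbol, and Vtcn1 and its surroundings are the lowest group of symbols.

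By position, promoter peaks of the set differed less than intronic ones, as in the whole table. The 6 promoter peaks had a median difference of 0.18, the 22 intronic peaks 0.31 and the 26 intergenic peaks 0.23, where all peaks of these classes had 0.07, 0.12 and 0.10. A promoter here means a distance of at most 1000 bp from the authors' start site. The genes share start sites and surroundings among their own peaks, so peaks are not independent of each other.

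Genes that act with these ligands were read against the same background of 2.23% of all peaks called higher and 0.507% lower. Of 11 receptor genes, 9 had 34 peaks, with 2 called higher, or 5.88%, and 0 lower and a median difference of 0.16. A peak 40.5 kb from the start site of Sirpa, the receptor of CD47, rose to 121 reads with mA2 dRNA, against 31.3 with Con dRNA, a ratio of 3.85 with adjusted p 2.27e-04 by the authors' deposited table. An exonic peak of Havcr2, which encodes TIM-3, rose to 64.7 reads with mA2 dRNA, against 22.5 with Con dRNA, with adjusted p 0.0360 by the authors' deposited table, and this call ended under each centring (0.0635 to 0.0749). The leading Tigit peak, with 39.7 reads with mA2 dRNA and 16.4 with Con dRNA, was not called.

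Of 20 other ligand genes, 17 had 74 peaks, with 3 called higher, or 4.05% against 2.23% of all peaks, and 1 lower, and a median difference of -0.05. Nectin3, a nectin that also binds PVR, held 2 of the calls. The stronger one, 88.5 kb upstream, rose to 84.3 reads with mA2 dRNA, against 15.7 with Con dRNA, a ratio of 5.37 with adjusted p 6.14e-04 by the authors' deposited table. Its promoter peak rose to 192 reads with mA2 dRNA, against 99.0 with Con dRNA, with adjusted p 0.0492 by the authors' deposited table. A peak 2.68 kb from the start site of Fgl1, which encodes a ligand of LAG-3, rose 1.87-fold. The Nectin3 promoter and Fgl1 calls ended under each centring, with adjusted p of 0.105 to 0.317 and 0.0714 to 0.110. A peak 18.3 kb from H2-Q1, an MHC class I gene with near-identical relatives in its cluster, fell to 329 reads with mA2 dRNA, against 513 with Con dRNA, a call that ended with centring by 10 Mb window (adjusted p 0.0514, 0.0119 to 0.0514 over the centrings).

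Genes that regulate PD-L1 had 176 peaks at 23 of 23 genes, with 4 called higher and 1 lower, the Jak2 peak above, and a median difference of 0.16. The 4 are 2.27% of these peaks, near the 2.23% of all peaks. Egfr, a growth factor receptor whose signalling raises PD-L1, held 3 of the higher calls. The one 35.1 kb upstream rose to 334 reads with mA2 dRNA, against 150.0 with Con dRNA, a ratio of 2.23 with adjusted p 0.00492 by the authors' deposited table, and centring by 10 Mb window ended each of the 3 calls, that 43.9 kb upstream also ending under the other centrings (adjusted p 0.0968 to 0.176 there, 0.0148 to 0.176 over the 4 centrings). A peak 33.0 kb from the start site of Irf1, the interferon-induced factor that acts on Cd274, rose to 418 reads with mA2 dRNA, against 261 with Con dRNA, a call that ended under each centring (adjusted p 0.0963 to 0.144).

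Markers of cell types were read in the same table. All 8 mesenchymal genes had a promoter peak, with summed promoter reads of 3661 with mA2 dRNA and 3421 with Con dRNA. Of 10 epithelial genes 5 had a promoter peak, Cdh1 and Krt8 among them but not Epcam. Their promoter reads summed to 930 with mA2 dRNA and 824 with Con dRNA. Of 11 lung lineage genes 6 had a promoter peak: Abca3, Foxa1, Foxa2, Hopx, Scgb1a1 and Sftpb. These summed to 1169 reads with mA2 dRNA and 1169 with Con dRNA. Nkx2-1 and Sftpc had no promoter peak, and Napsa, Sftpa1 and Ager had no peak in this table. Of 14 leukocyte genes only Cd68 and Csf1r had a promoter peak, with 373 reads in sum with mA2 dRNA and 322 with Con dRNA, and Ptprc, Cd3e and Spi1 had none. Of 9 endothelial and fibroblast genes 3 had a promoter peak, with 730 reads in sum with mA2 dRNA and 617 with Con dRNA. Among all peaks, 2.23% were called higher and 0.507% lower. Called higher were 5 of 48 endothelial and fibroblast peaks and 3 of 60 epithelial peaks, both shares above that of all peaks. The share of lung lineage peaks called higher, 2 of 86, was near that of all peaks. Of 33 leukocyte peaks 1 was called lower, a share above that of all peaks but resting on 1 peak. Whether these shares differ from those of all peaks beyond chance was not tested. The mesenchymal list of 60 peaks and the antigen-presenting list of 19 held 0 calls. With 2.73% of all peaks called in either direction, 0 calls in lists this small are near that share. The part of such cells in the values of the ligand genes was not tested.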

How the data were processed

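The 4 ATAC-seq libraries were 2 with mA2 dRNA and 2 with Con dRNA. Per the submitters' processing notes the build was mm10 and the tools, with no version or role, included Bowtie2 and MACS2, DiffBind and ChIPseeker. The sources used here do not state read filters, normalization, pooling or the test. The authors deposited, per the file headers, the log2 of mean normalized reads per peak and group, a fold, a p-value and an adjusted p-value. Recomputing Benjamini-Hochberg values over all peaks gave the deposited ones within 7.40e-06. The file's columns call the groups dmA12 and dLuc, taken as mA2 and Con because the series holds a single contrast. Columns of single libraries, 4 in number, matched no label and were not used, so depth per library is unknown.

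Differences were taken between the deposited log2 group means, not from the authors' deposited log2 fold, whose derivation is not stated. That fold could be much smaller. It was 0.33 against a difference of 0.44 at the called Cd47 peak. At the Pdcd1lg2 peak 6.96 kb in it was 0.18 against 1.19, and at the Cd276 peak at 6.17 kb 0.48 against 1.46. Calls used the deposited adjusted p-value under 0.05. The members and lists were chosen with earlier results of these data known. For each gene the closest, the most open and the smallest-p peak and every called peak were named, and in each list of related genes the called peaks and up to 3 of smallest p. Centring alternatives used an error per peak implied by the deposited p-value and difference (a running median over 201 peaks where p exceeded 0.5). The code was run on simulated data whose p-values were made from the difference and error by the same relation. That run cannot tell whether the deposited p-values follow this relation, so the adjusted p-values after centring are approximate. Promoter sequences and gene bounds are RefSeq GRCm38.p6, the build mm10 names. Python 3.11.15, pandas 2.3.3, numpy 2.4.6 and scipy 1.17.1 were used.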

Additional observations from a re-analysis of the deposited data

How the results depend on the processing

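The single Cd47 call went to 0 of 60 peaks with differences centred on the median of all peaks, with the trend along mean reads removed, and with centring by chromosome or by 10 Mb window. The count was also 0 at an adjusted p under 0.01, 0 with peaks within 3 kb (9 peaks) or within 50 kb (38 peaks) of the start site, and 0 without the Cd47 peaks, which the construction of these alternatives gives. It was 5 at an unadjusted p under 0.05, or 8.33% against 11.7% of all peaks. Over the 165 peaks within 100 kb of the RefSeq bounds 5 were called, all higher, or 3.03% against 2.23% of all peaks. Of these 5 calls, 4 were at peaks assigned to genes outside the 10. That alternative, like leaving out Cd47, was chosen after seeing the data. The median difference moved to 0.0598 with centring by chromosome and 0.0688 by 10 Mb window, and lay between 0.12 and 0.21 otherwise. Of 39 named peaks, 2 turned from higher to lower: the Pvr promoter peak, to -0.0567 (median), -0.0272 (trend), -0.12 (chromosome) and -0.10 (window), and the peak over the Cd274 start site, to -0.0885, -0.0873, -0.19 and -0.14 in the same order. A floor of 20 mean reads removed 0 members and, like adding 1 or 5 reads before the log, changed no verdict. No paired analysis was possible because the deposited group means carry no replicate numbers, and for the same reason leaving out single libraries and fits per library were not run. Depth per library is unknown, so what depth limits was not tested.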

Other observations

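Called peaks of other genes lay close to 2 of the ligands, and were picked out after their values were seen. Near Cd276, the promoter peak of Insyn1 rose to 237 reads with mA2 dRNA, against 101 with Con dRNA, with adjusted p 0.00286 by the authors' deposited table, and an intergenic peak assigned to 4930461G14Rik rose to 147 reads, against 44.7 with Con dRNA. Near Cd80, an intronic peak of Popdc2 rose 2.27-fold and an intronic peak of Pla1a, a phospholipase gene, 2.88-fold, and both calls ended with centring by chromosome or by 10 Mb window (adjusted p 0.0914 to 0.119 there, 0.0241 to 0.119 over the 4 centrings). Between Nectin2 and Pvr lies Bcl3, which encodes an NF-κB regulator, and its peak 1.40 kb upstream held 543 reads with mA2 dRNA and 406 with Con dRNA, with adjusted p 0.327 by the authors' deposited table.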
